A study of Homo sapiens with 16 samples.

Results

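The genes described here mark cells of the bone-forming lineage, measured in U2OS, an established human osteosarcoma cell line. They were chosen by name: the transcription factors RUNX2, MSX2 and DLX5, the mineralisation enzyme ALPL, the matrix proteins SPP1 and SPARC, the ligands BMP2 and BMP4, and the decoy receptor TNFRSF11B. Of these 9 genes, 8 had a row in each of the 4 deposited tables, which together held 23396 genes. DLX5 had no row in the tables used here and was not analysed here.

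The study measured poly(A) RNA by RNA sequencing in 16 libraries, with 4 libraries in each of 4 groups. Cells had received a control siRNA (siControl) or an siRNA against RFX7 (siRFX7), a transcription factor. Each was then exposed for 24 h to DMSO, the solvent, or to 10 µM Nutlin-3a, which keeps MDM2 from binding p53 and so stabilises p53. The comparisons ask which genes respond to p53 activation, which respond to loss of RFX7, and whether one response changes with the other. All groups share the same cell line and an siRNA transfection, and the labels name neither the siRNA sequences nor separate cultures, so p-values measure the spread between libraries, which may be technical.

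Osteoblasts arise from mesenchymal progenitors under the control of RUNX2, with the bone morphogenetic proteins (BMPs) acting from outside the cell. BMP ligands bind paired receptor kinases, which phosphorylate SMAD1, SMAD5 and SMAD9, and these enter the nucleus with SMAD4 to switch on targets such as the ID genes. Mature osteoblasts secrete type I collagen and other matrix proteins, mineralise the matrix with the help of alkaline phosphatase, and restrain bone-resorbing osteoclasts through osteoprotegerin, the product of TNFRSF11B.

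The sequence before SPP1 is shown because RUNX2 and SPP1, a known RUNX2 target in bone, were both measured. It is RefSeq sequence of GRCh38.p14, plus strand, chr4:87975464-87975649, which ends at the last base before the start of SPP1 in GENCODE 29. The capitals mark AACCACA, the core recognised by RUNX factors, at bases 87975571 to 87975577.
SPP1: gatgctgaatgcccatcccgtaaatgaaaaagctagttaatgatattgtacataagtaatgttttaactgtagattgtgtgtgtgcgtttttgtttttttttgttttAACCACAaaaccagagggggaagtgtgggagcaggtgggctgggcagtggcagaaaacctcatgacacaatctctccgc
The motif was searched on both strands, as AACCACA and its reverse complement TGTGGTT, in the 250 bases before each RefSeq start, and 1280 of 35116 such windows (3.65%) held it. Windows were read for 6 of the genes (RUNX2, MSX2, ALPL, SPP1, SPARC and BMP4), 11 windows in all, and 2 held the motif. Besides SPP1, the window before the upstream RefSeq start of RUNX2 held it, 88 bases before that start on the forward strand. This window, chr6:45328080-45328329, runs past the GENCODE 29 start of RUNX2 at 45328157. By GENCODE 29 the match therefore lies inside the gene and not before it. A match describes these letters only and does not show binding.

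A pair of 30-base stretches of 3′ UTR is shown because each carries a short word that was common among genes lower or higher with siRFX7. The capitals mark the word, both genes lie on the plus strand, and the positions are chr4:87982997-87983026 for SPP1 and chr5:174729874-174729903 for MSX2 on GRCh38.
SPP1: tggttgaatgtGTATCTAtttgagtctgga
MSX2: ttttatacagcaGACGTAaaaattcaaatt
Both words had been picked earlier from these same fold changes, so their shares are no independent evidence. Of 11172 genes with a 3′ UTR whose base mean reached 100, 8.93% carried GTATCTA, against 133 of 226 (58.8%) of those called lower with siRFX7 under both treatments with a log2 size of 0.5 or more. GACGTA was carried by 5.46% of the 11172 genes and by 91 of 241 (37.8%) of those called higher to that extent. By call and size SPP1 (-0.87 and -0.60 under DMSO and Nutlin-3a) met the limits for the lower genes. MSX2 (0.29, and 0.17, not called) did not meet those for the higher genes. The other 6 genes (RUNX2, ALPL, SPARC, BMP2, BMP4 and TNFRSF11B) carry neither word, although TNFRSF11B (0.94 and 0.69) met the limits for the higher genes. The part of these words in the results for SPP1 and MSX2 was not tested.

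The values below come from the authors' pairwise group comparisons, which hold no single-library values, so a level in every library cannot be given. A base mean averages a gene's normalised counts in the 8 libraries compared, and the base means of a table summed to between 2.79e+07 and 3.53e+07. Counts were scaled within each comparison, so levels from different comparisons cannot be set side by side. The siControl DMSO level was a median 1.11 times as high in the Nutlin-3a comparison as in the siRFX7 comparison. Errors are the authors' standard errors (SE) on the log2 scale. A gene was called at an adjusted p under 0.05 by the authors' DESeq2 Wald test with Benjamini-Hochberg adjustment over all genes of a table. The knockdown left 18.6% of the control RFX7 level under DMSO and 19.4% under Nutlin-3a, per the authors' deposited tables. CDKN1A and MDM2, p53 targets, rose by 3.24 ± 0.04 (SE) and 2.89 ± 0.04 with Nutlin-3a in the authors' deposited siControl table, and by 2.98 ± 0.04 and 2.76 ± 0.04 in the siRFX7 one. These 3 genes set the direction of each table and are no result here.

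Per length of exon, the lineage genes spanned a wide range of abundance. In the authors' deposited siControl table SPARC stood at 6536 normalised counts per kb, followed by BMP4 at 431 and ALPL at 123. Then came BMP2 (92.0 per kb), MSX2 (90.1), SPP1 (73.2), TNFRSF11B (71.9) and RUNX2 (52.8). These levels have no error of their own in the tables, and BMP2 and MSX2, like SPP1 and TNFRSF11B, lay close together.

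The osteoblast label was checked against the other genes of the lineage. Collagen I, the main bone collagen, is built from the products of COL1A1 and COL1A2. COL1A1 was abundant, at a base mean of 39039 in the authors' deposited siControl table, while COL1A2 had 13.2, which is 3976 against 1.19 per kb. Osteocalcin (BGLAP), a late osteoblast marker, had a base mean of 4.25 there. Of 30 further lineage genes, 16 had a row in all tables, 3 in some and 11 in none. Those without a row include SP7, the factor that acts after RUNX2, the bone sialoprotein gene IBSP, the osteocyte genes DMP1, MEPE and SOST, and TNFSF11, which encodes the RANK ligand that osteoprotegerin binds. DLX3, DLX6 and TWIST1, transcription factor genes of the lineage, had no row either, while the mineralisation gene PHOSPHO1 stood at 59.3 per kb. The data therefore show abundant SPARC and COL1A1, with several defining markers near 0 or without a row. A split into early genes present and late genes absent is not shown.

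Markers of related lineages were measured too, and some were no less abundant. SOX9, the master factor of cartilage, stood at 691 per kb in the authors' deposited siControl table, but the cartilage collagen COL2A1 at 0.456 and aggrecan (ACAN) at 29.6. The fat cell factor PPARG stood at 158 per kb, with ADIPOQ, FABP4 and LEP without a row. Among muscle markers MYH3 was highest at 17.6 per kb, and MYOD1, MYF5, MYOG and CKM had no row. The osteoclast receptor OSCAR stood at 164 per kb and CTSK at 26.7, with ACP5, DCSTAMP and TNFRSF11A without a row. The label of osteoblast genes therefore names genes, and not a differentiated cell type. In these bulk libraries, fewer cells of a type and less RNA per cell cannot be told apart.

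**Figure D1:**
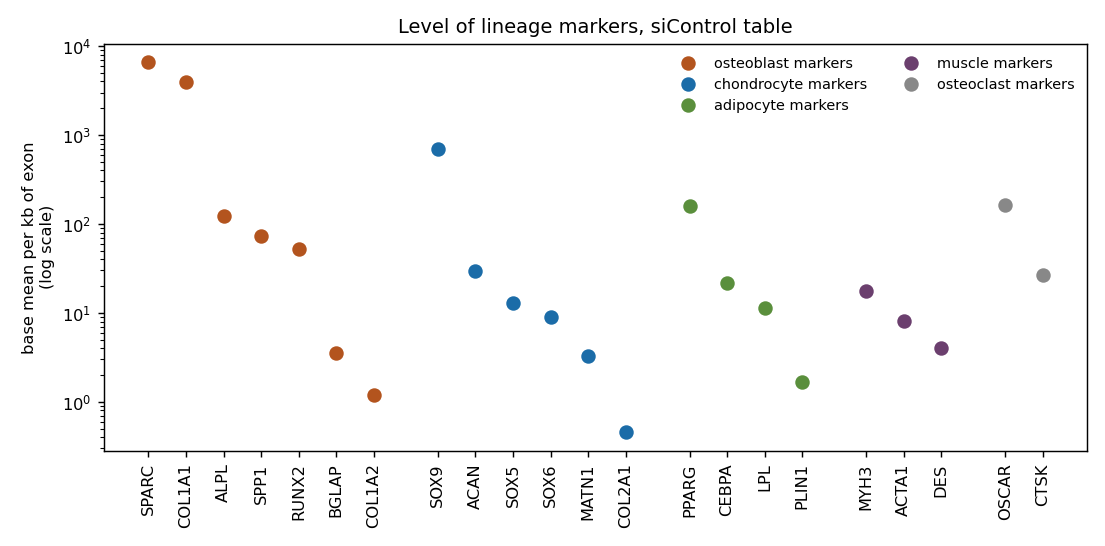
Levels of lineage markers in the authors' siControl table, as base mean per kb of exon on a log axis, 1 point a gene, coloured by lineage. Osteoblast genes are SPARC, COL1A1, ALPL, SPP1, RUNX2, BGLAP and COL1A2 only, and of the genes plotted SPARC (6536) and COL1A1 (3976) lie highest and COL1A2 (1.19) and COL2A1 (0.456) lowest.

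With Nutlin-3a in siControl, BMP4 fell and SPP1, ALPL and SPARC rose. Of 8 lineage genes in the authors' deposited table, 3 were called higher and 1 lower, and the other 4 (RUNX2, MSX2, BMP2 and TNFRSF11B) were not called. Across all 23353 genes there, 37.9% were called, 18.3% higher and 19.6% lower, so 4 of 8 is near the background. The median log2 fold change of the 8 genes was 0.08, against 0.01 over all genes. In siRFX7, the authors' deposited table called 1 of 8 higher (SPP1) and 2 lower (BMP4 and TNFRSF11B), against 39.1% of all 21382 genes, 18.7% higher and 20.3% lower. The median there was 0.05, against 0.01 over all genes.

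With siRFX7 under DMSO, TNFRSF11B, SPARC, ALPL and MSX2 rose and SPP1 and BMP4 fell. The authors' deposited table thus called 4 of 8 higher and 2 lower, against 37.4% of all 19511 genes, 19.9% higher and 17.5% lower. Under Nutlin-3a, TNFRSF11B and SPARC rose and SPP1 and BMP4 fell, 2 of 8 in each direction, against 32.6% of all 20335 genes there, 17.2% higher and 15.4% lower, by the authors' deposited table. The medians of the 8 genes were 0.06 under DMSO, against -0.002 over all genes, and 0.02 under Nutlin-3a, against -0.005. Only SPP1 and BMP4 of the 8 were called in all 4 authors' deposited tables.

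**Figure D2:**
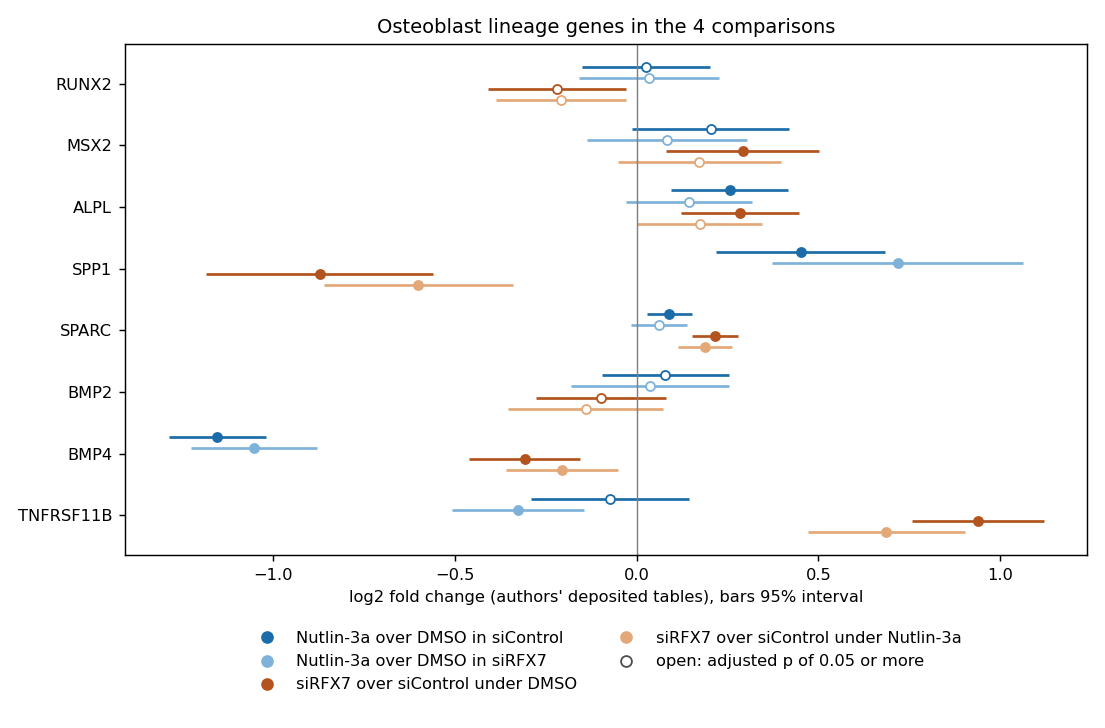
Log2 fold changes of the 8 lineage genes in the 4 comparisons, with 95% intervals from the authors' SE; filled points have an adjusted p under 0.05. BMP4 lies near -1 for both Nutlin-3a comparisons, SPP1 to the left and TNFRSF11B to the right of 0 for both siRFX7 comparisons.

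RUNX2 (ENSG00000124813, chr6:45328157-45664349, plus strand), the factor that commits progenitors to bone, hardly moved with Nutlin-3a. The authors' deposited siControl table gave levels of 428 normalised counts under DMSO and 436 under Nutlin-3a, a log2 fold change of 0.02 ± 0.09 (SE; 95% interval -0.15 to 0.20). In the siRFX7 libraries the response was 0.03 ± 0.10 in the authors' deposited table. With siRFX7 the authors' deposited tables gave -0.22 ± 0.10 (SE; adjusted p 0.0590) under DMSO and -0.21 ± 0.09 (adjusted p 0.0643) under Nutlin-3a, which were not called. RUNX2 was called lower under both treatments when only genes whose base mean reached 100 were adjusted over (adjusted p 0.0446 and 0.0468) or when fold changes were centred on their median (0.0432 and 0.0489). Over its whole span RUNX2 overlaps SUPT3H, RUNX2-AS1 and AL096865.1 on the opposite strand, and of these only AL096865.1 had a row. The strand setting of the counting is not given in the sources used here. Whether reads from these genes were counted for RUNX2 is therefore not known.

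MSX2 (ENSG00000120149, chr5:174724533-174730893, plus strand) encodes a homeodomain factor induced by BMPs. With siRFX7 under DMSO it rose from 170.5 to 209 normalised counts in the authors' deposited table, by 0.29 ± 0.11 (SE; adjusted p 0.0215). The authors' deposited table for Nutlin-3a showed 0.17 ± 0.11 (SE; adjusted p 0.264), and the Nutlin-3a responses of 0.20 ± 0.11 in siControl and 0.08 ± 0.11 in siRFX7 were not called either. Its 3′ UTR carries the word GACGTA shown above.

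ALPL (ENSG00000162551, chr1:21509372-21578412, plus strand) encodes tissue-nonspecific alkaline phosphatase, which removes pyrophosphate and so permits mineral growth. In siControl it rose from 338 to 403 normalised counts with Nutlin-3a, by 0.26 ± 0.08 (SE; adjusted p 0.00650) in the authors' deposited table. With siRFX7 under DMSO it rose by 0.28 ± 0.08 (SE; adjusted p 0.00242) in the authors' deposited table, to 122% of the control level. The authors' deposited tables gave 0.14 ± 0.09 (adjusted p 0.207) for Nutlin-3a in siRFX7 and 0.17 ± 0.09 (adjusted p 0.121) for siRFX7 under Nutlin-3a. All 4 values are above 0, and the calls were made in the comparisons that contain the siControl DMSO libraries, which both share.

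SPARC (ENSG00000113140, chr5:151661096-151687165, minus strand) encodes osteonectin, a collagen-binding matrix protein, and was the most abundant of the 8 genes. It rose with siRFX7 by 0.22 ± 0.03 (SE; adjusted p 6.34e-10) under DMSO and by 0.19 ± 0.04 (adjusted p 8.74e-06) under Nutlin-3a per the authors' deposited tables, to 116% and 114% of the control level. The Nutlin-3a response was smaller, at 0.09 ± 0.03 (SE; adjusted p 0.0136) in siControl and 0.06 ± 0.04 (adjusted p 0.232) in siRFX7 (from the authors' deposited tables). Its small SE goes with its base mean of 27571 to 31574, and a size of at least 0.25 removes all 3 calls. SPARC overlaps CLMAT3 on the opposite strand.

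SPP1 (ENSG00000118785, chr4:87975650-87983426, plus strand) encodes osteopontin, a secreted phosphoprotein of bone matrix that many tumours also make. Its level fell with siRFX7 and rose with Nutlin-3a. Under DMSO it went from 129.6 to 70.8 normalised counts with siRFX7 in the authors' deposited table, a fall by 0.87 ± 0.16 (SE) on the log2 scale (adjusted p 4.33e-07) that left 54.7% of the control level (95% interval of the fold 0.44 to 0.679). Under Nutlin-3a 65.9% of the control level was left, at -0.60 ± 0.13 (SE; adjusted p 4.45e-05) in the authors' deposited table. With Nutlin-3a it rose by 0.45 ± 0.12 (SE; adjusted p 0.000615) in siControl and by 0.72 ± 0.18 (adjusted p 0.000207) in siRFX7 (from the authors' deposited tables). Of 13170 genes whose base mean under DMSO reached 100, 83 (0.630%) had a log2 fold change at least as low with siRFX7, itself included. Its base mean was 79.3 to 170 over the 4 authors' deposited tables, the lowest of the 8 genes, and its SE the largest. SPP1 carries GTATCTA in the 3′ UTR shown above and AACCACA before its start.

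BMP2 (ENSG00000125845, chr20:6767664-6780280, plus strand), a ligand able to induce bone, was not called in any comparison. The authors' deposited tables gave 0.08 ± 0.09 (SE) and 0.04 ± 0.11 for Nutlin-3a in siControl and siRFX7, and -0.10 ± 0.09 and -0.14 ± 0.11 for siRFX7 under DMSO and Nutlin-3a. Its 95% intervals reach from -0.35 to 0.25 over the 4 authors' deposited tables, so an absence of change is not shown.

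BMP4 (ENSG00000125378, chr14:53949736-53958761, minus strand), the closest relative of BMP2, had the largest Nutlin-3a response of the 8 genes. In siControl it went from 1833 to 823 normalised counts in the authors' deposited table, a fall by 1.15 ± 0.07 (SE) on the log2 scale (adjusted p 1.13e-62) to 44.9% of the DMSO level. In siRFX7 it went from 1126 to 542 normalised counts in the authors' deposited table, a fall by 1.05 ± 0.09 (SE; adjusted p 2.06e-31) to 48.2%. The counts of the siControl and siRFX7 comparisons are not on the same scale, so their DMSO levels do not give the knockdown effect. Both responses were far beyond their error. Of 13525 genes whose base mean in siControl reached 100, 23 (0.170%) had values as low or lower, BMP4 included, and in siRFX7 141 of 12867 (1.10%) were. The knockdown lowered BMP4 further, by 0.31 ± 0.08 (SE; adjusted p 0.000398) under DMSO and by 0.21 ± 0.08 (adjusted p 0.0293) under Nutlin-3a per the authors' deposited tables. The second of these was no longer called at an adjusted p under 0.01 or with a size of at least 0.25.

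TNFRSF11B (ENSG00000164761, chromosome 8, 118923557 to 118952200, minus strand) encodes osteoprotegerin, the decoy that keeps RANK ligand from its receptor. It had the largest rise with siRFX7 of the 8 genes. Under DMSO it went from 187 to 358 normalised counts in the authors' deposited table, a log2 fold change of 0.94 ± 0.09 (SE; adjusted p 9.43e-23) or 1.92-fold (95% interval 1.69 to 2.17). Under Nutlin-3a it rose 1.61-fold (95% interval 1.39 to 1.87), by 0.69 ± 0.11 (SE; adjusted p 6.88e-09), in the authors' deposited table. Of 13170 genes whose base mean under DMSO reached 100, 53 (0.402%) were at least as high, itself included, and under Nutlin-3a 141 of 13177 (1.07%) were. Nutlin-3a lowered it in siRFX7, by 0.33 ± 0.09 (SE; adjusted p 0.00164), while the siControl value was -0.07 ± 0.11 (adjusted p 0.679) in the authors' deposited tables. Its usual partners could not be followed, since TNFSF11 and TNFRSF11A had no row.

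Setting the siControl DMSO level at 100% gives the order of the 4 groups for each gene. The level with both siRFX7 and Nutlin-3a has no error, since its chain of comparisons shares libraries. BMP4 went from 100% to 80.8% with siRFX7 alone, 44.9% with Nutlin-3a alone and 38.9% with both. TNFRSF11B was highest with siRFX7 alone (192%), then with both (153%), and 95.1% with Nutlin-3a alone, which did not differ from 100% beyond its error. SPP1 was highest with Nutlin-3a alone (137%), 90.03% with both, and lowest with siRFX7 alone (54.7%). With both, SPP1 thus stood nearer to its untreated level than with either alone, but no deposited comparison tests that level against siControl DMSO.

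The other 5 genes spanned less. With Nutlin-3a alone, siRFX7 alone and both, MSX2 stood at 115%, 122% and 130%, ALPL at 119%, 122% and 135%, and SPARC at 106%, 116% and 121%. RUNX2 stood at 102%, 85.9% and 88.0%, and BMP2 at 106%, 93.4% and 95.8%. By these point values MSX2, ALPL and SPARC were highest with both agents. Their Nutlin-3a responses in siRFX7 were not called, so a step from siRFX7 alone to both is not shown. For RUNX2 and BMP2 both siRFX7 groups lay below both siControl groups, but their changes with siRFX7 were not called in the authors' deposited tables.

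**Figure D3:**
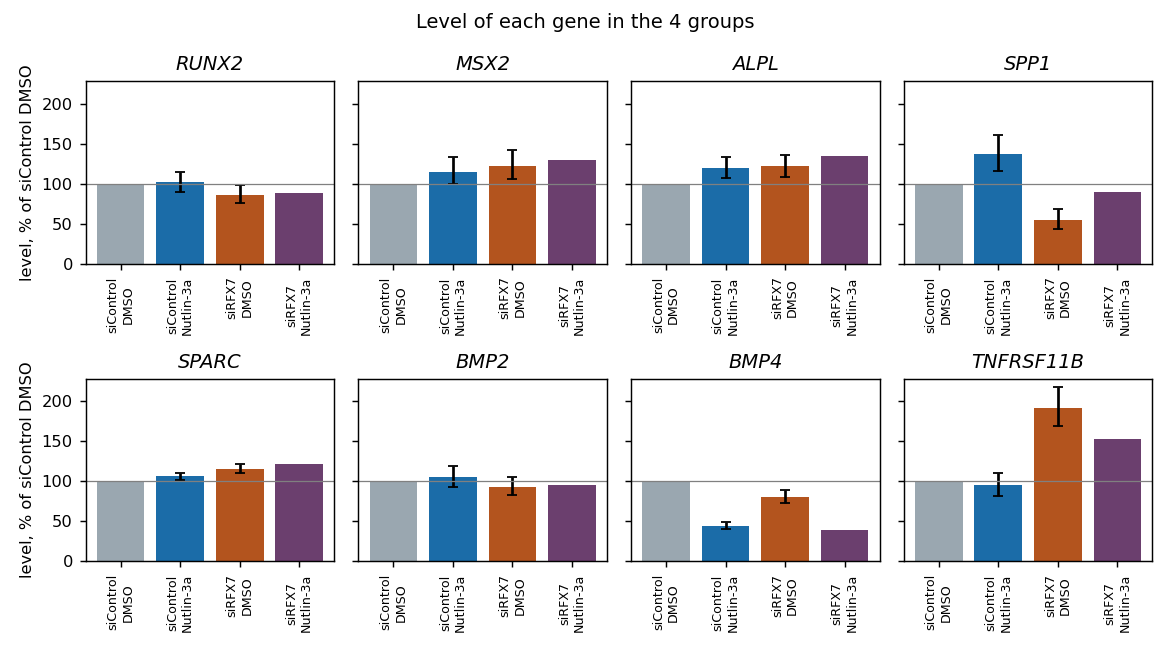
Level of each lineage gene in the 4 groups as % of siControl DMSO, with 95% intervals from the authors' SE for the groups compared with it directly and none for siRFX7 with Nutlin-3a. BMP4 drops to 44.9% and 38.9% in the Nutlin-3a groups, SPP1 is lowest (54.7%) and TNFRSF11B highest (192%) with siRFX7 under DMSO.

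Whether the Nutlin-3a response depended on RFX7 was tested by subtracting the siControl response from the siRFX7 response, which share no library. By a two-sided normal test with Benjamini-Hochberg adjustment over all genes, none of the 8 lineage genes differed at an adjusted or unadjusted p under 0.05. Over all 21339 genes 200 differed (0.937%), 0.173% with a higher and 0.764% with a lower response in siRFX7, and 1349 (6.32%) had an unadjusted p under 0.05. The 8 differences had a median of -0.04, against -0.0006 over all genes, and 3 were above 0.

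TNFRSF11B came nearest, at -0.25 ± 0.14 (95% interval -0.54 to 0.03, p 0.0805, adjusted p 0.894). Its call in siRFX7 and not in siControl is therefore no evidence that the responses differ. For SPP1 the difference was 0.27 ± 0.21 (95% interval -0.15 to 0.68) and for BMP4 0.10 ± 0.11 (-0.12 to 0.32). The intervals were -0.25 to 0.27 for RUNX2, -0.43 to 0.19 for MSX2, -0.35 to 0.12 for ALPL and -0.32 to 0.24 for BMP2. SPARC had the narrowest, -0.13 to 0.07, around -0.03 ± 0.05. Differences inside these intervals are compatible with the data, so equal responses are not shown. The same test gives the difference of the siRFX7 effects between Nutlin-3a and DMSO, so the calls of MSX2 and ALPL under DMSO alone are no evidence of a dependence on treatment.

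**Figure D4:**
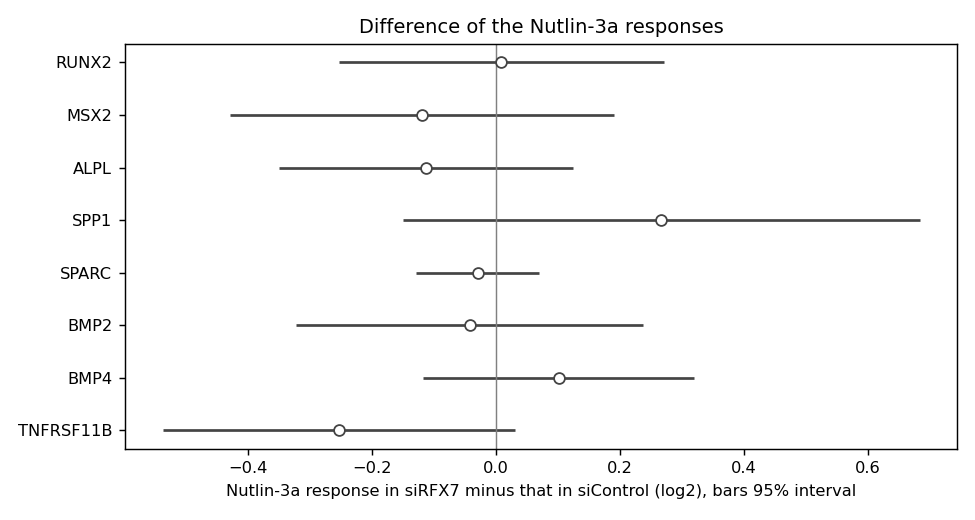
Nutlin-3a response in siRFX7 minus that in siControl for the 8 lineage genes on the log2 scale, with 95% intervals. All intervals include 0, and TNFRSF11B (-0.25) and SPP1 (0.27) lie farthest from it.

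The genes most like SPP1 and BMP4 were found by the Euclidean distance over the 4 log2 fold changes among 12747 genes whose base mean reached 100 in all tables. The nearest to SPP1 was NAP1L3, at a distance of 0.140, with 0.44, 0.68, -0.76 and -0.52 for Nutlin-3a in siControl and siRFX7 and siRFX7 under DMSO and Nutlin-3a per the authors' deposited tables. RBM43 followed at 0.153, with 0.42, 0.69, -0.77 and -0.50 in the authors' deposited tables. The nearest to BMP4 were BRCA2, a DNA repair gene, at 0.152, and AL132777.1 at 0.157. For BRCA2 the authors' deposited tables gave -1.05, -0.96, -0.25 and -0.16, in the same order, and for AL132777.1 -1.03, -1.004, -0.32 and -0.29. These 4 values are not independent, since each pair of neighbouring comparisons shares a group, and likeness here describes fold changes only.

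The other genes of the BMP pathway moved in both directions. Of 33 listed genes besides BMP2 and BMP4, 29 had a row in all tables, 2 in some, and GDF5 and GDF6 in none. With Nutlin-3a in siControl 7 of 31 were called higher and 8 lower (median -0.04), and in siRFX7 4 of 30 higher and 12 lower (median -0.14), in the authors' deposited tables. With siRFX7 8 of 30 were called higher and 4 lower under DMSO (median 0.07), and 6 of 29 higher and 8 lower under Nutlin-3a (median -0.04), in the authors' deposited tables. Over all genes 18.3% were called higher and 19.6% lower for Nutlin-3a in siControl, and 18.7% and 20.3% in siRFX7. For siRFX7 these shares were 19.9% and 17.5% under DMSO and 17.2% and 15.4% under Nutlin-3a. The lower calls for Nutlin-3a in siRFX7 (12 of 30 against 20.3%) and for siRFX7 under Nutlin-3a (8 of 29 against 15.4%) lay above their shares. The other counts of the list lay nearer to theirs. Of the list, 1 gene (ID3) had a Nutlin-3a response that differed.

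Among ligands, BMP7 moved opposite to BMP4. It rose with Nutlin-3a by 0.68 ± 0.06 (SE; adjusted p 2.78e-25) in siControl and 0.62 ± 0.06 (adjusted p 1.29e-20) in siRFX7 (from the authors' deposited tables), while siRFX7 gave 0.02 and -0.05, not called. BMP5 fell with Nutlin-3a, by 0.23 ± 0.07 (SE) in siControl and 0.55 ± 0.08 in siRFX7 (authors' deposited tables), giving a difference of -0.32 ± 0.10 that was not called (adjusted p 0.145). Over all genes 19.9% were called higher and 17.5% lower with siRFX7 under DMSO, and 17.2% and 15.4% under Nutlin-3a. Among the 6 receptors, 2 were called higher with siRFX7 under both treatments and none lower. These were ACVR1, a type I receptor, by 0.47 ± 0.06 (SE; adjusted p 7.10e-15) and 0.34 ± 0.06 (adjusted p 5.11e-08), and BMPR1B, by 0.40 ± 0.09 and 0.28 ± 0.10, under DMSO and Nutlin-3a per the authors' deposited tables. ACVR1 and BMPR2, a type II receptor, also rose with Nutlin-3a, by 0.30 ± 0.06 (SE) and 0.23 ± 0.05 in siControl and 0.16 ± 0.06 and 0.23 ± 0.06 in siRFX7, per the authors' deposited tables.

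The 4 signal transducers SMAD1, SMAD5, SMAD9 and SMAD4 were not called in 3 of the authors' deposited tables, and SMAD1 and SMAD4 were called lower with Nutlin-3a in siRFX7, by 0.17 ± 0.07 (SE) and 0.19 ± 0.07. Of the inhibitors, SMAD6, which blocks BMP receptors inside the cell and is itself a BMP target, fell in every comparison. The authors' deposited tables gave -0.86 ± 0.07 (SE; adjusted p 4.68e-34) and -0.77 ± 0.09 (adjusted p 1.85e-14) with siRFX7 under DMSO and Nutlin-3a, and -0.58 ± 0.07 and -0.50 ± 0.10 with Nutlin-3a in siControl and siRFX7. SMAD6 and BMP4 were thus called lower in all 4 authors' deposited tables. The inhibitors, SMAD6 included, moved in both directions with siRFX7: 6 of 11 were called higher and 1 lower under DMSO, and 4 of 10 higher and 2 lower under Nutlin-3a, per the authors' deposited tables. The shares over all genes were 19.9% higher and 17.5% lower under DMSO, and 17.2% and 15.4% under Nutlin-3a. Among the higher ones were the ubiquitin ligases SMURF1 (0.23 ± 0.04 SE under DMSO; it carries GACGTA) and SMURF2 (0.24 ± 0.04 under Nutlin-3a), and SMURF1 stood at 0.16 ± 0.04 under Nutlin-3a per the authors' deposited tables. The secreted binding proteins differed: with Nutlin-3a in siControl FSTL1 fell by 0.35 ± 0.03 (SE) and CHRD, the BMP-binding chordin, rose by 0.30 ± 0.10, and with siRFX7 under Nutlin-3a follistatin (FST) fell by 0.38 ± 0.08, in the authors' deposited tables.

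All 5 listed BMP targets were called lower with siRFX7 under Nutlin-3a per the authors' deposited table (median -0.34), and 3 of 5 under DMSO (median -0.18), against 15.4% and 17.5% of all genes. This group holds only ID1, ID2, ID3, ID4 and HEY1, so the count depends on that choice. MSX2 and SMAD6, named above as BMP-induced, lie outside it. With siRFX7 under DMSO and Nutlin-3a the authors' deposited tables gave 0.29 (called) and 0.17 (not called) for MSX2. For SMAD6 they gave -0.86 and -0.77, both called. HEY1 fell by 0.47 ± 0.14 (SE; adjusted p 0.00355) under DMSO and 0.52 ± 0.15 (adjusted p 0.00251) under Nutlin-3a per the authors' deposited tables. The ID genes encode inhibitors of basic helix-loop-helix factors. ID2 fell by 0.25 ± 0.09 (SE) and 0.34 ± 0.10 and ID1 by 0.18 ± 0.05 and 0.22 ± 0.05 under DMSO and Nutlin-3a per the authors' deposited tables. ID2 carries GTATCTA in its 3′ UTR, and its part in the result was not tested. ID4 fell with Nutlin-3a by 0.33 ± 0.09 (SE) in siControl and 0.59 ± 0.11 in siRFX7 (from the authors' deposited tables). ID3 rose with Nutlin-3a in siControl, by 0.16 ± 0.05 (SE; adjusted p 0.0111), and fell in siRFX7, by 0.12 ± 0.04 (adjusted p 0.0170), in the authors' deposited tables. That difference was called, at -0.28 ± 0.07 (adjusted p 0.0106), and would not be at an adjusted p under 0.01.

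**Figure D5:**
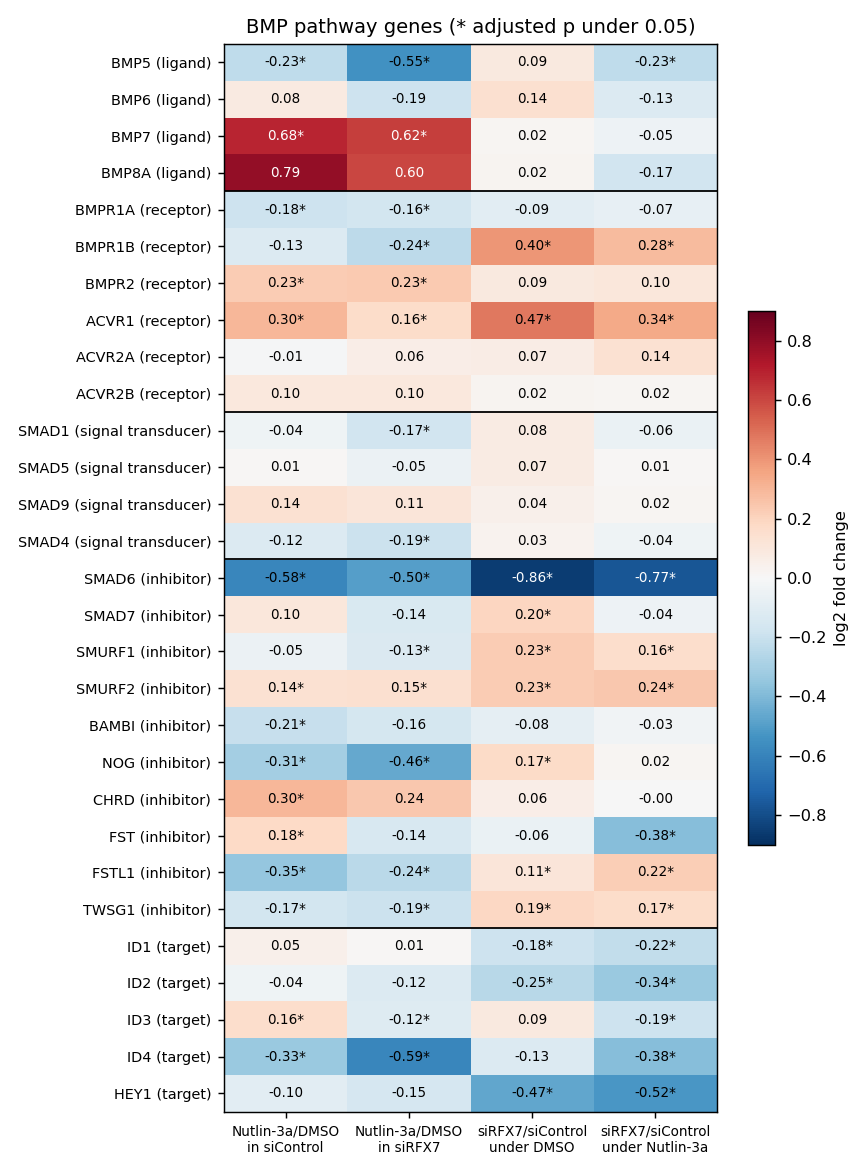
Log2 fold changes of the 29 BMP pathway genes with a row in all tables, by role, 1 column a comparison; an asterisk marks an adjusted p under 0.05. SMAD6 is lower in all columns, BMP7 higher with Nutlin-3a, and the 5 genes listed as targets lower in the last column.

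The other lineage genes gave a similarly mixed picture. With Nutlin-3a 4 of 19 were called higher and 4 lower in siControl (median -0.06), and 2 of 18 higher and 7 lower in siRFX7 (median -0.16), in the authors' deposited tables. Over all genes 18.3% were higher and 19.6% lower in siControl, near the list's counts, and 18.7% and 20.3% in siRFX7. MEF2C, a factor of bone and muscle, fell by 0.61 ± 0.11 (SE; adjusted p 3.15e-07) in siControl and 0.76 ± 0.12 (adjusted p 1.32e-09) in siRFX7 (from the authors' deposited tables). MSX1, a relative of MSX2, fell by 0.25 ± 0.07 (SE) and 0.43 ± 0.07, and CBFB, the partner subunit of RUNX2, by 0.25 ± 0.06 and 0.32 ± 0.05, in the authors' deposited siControl and siRFX7 tables. PHOSPHO1, a phosphatase that acts beside ALPL in mineralisation, rose by 0.56 ± 0.14 (SE; adjusted p 0.000320) and 0.52 ± 0.16 (adjusted p 0.00345) in the same authors' deposited tables. ATF4, a stress-response factor needed for osteoblast maturation, rose by 0.17 ± 0.04 (SE) and 0.14 ± 0.04 there, in the authors' deposited tables.

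With siRFX7 5 of 16 were called higher and 1 lower under DMSO (median 0.08), and 3 of 17 higher and 2 lower under Nutlin-3a (median 0.01), in the authors' deposited tables. The shares over all genes were 19.9% higher and 17.5% lower under DMSO, and 17.2% and 15.4% under Nutlin-3a, near the list's counts there. COL1A1 rose beside SPARC, by 0.38 ± 0.04 (SE; adjusted p 2.10e-16) under DMSO and 0.27 ± 0.05 (adjusted p 8.55e-07) under Nutlin-3a per the authors' deposited tables. MSX1 rose beside MSX2 under DMSO, by 0.29 ± 0.06 (SE; adjusted p 5.41e-06) in the authors' deposited table. ATF4 rose by 0.15 ± 0.04 (SE) under DMSO and 0.12 ± 0.04 under Nutlin-3a per the authors' deposited tables. ZEB2 rose by 0.73 ± 0.26 (SE) and 0.90 ± 0.33, at base means of only 31.7 and 21.0 in the authors' deposited tables. CDH11, the osteoblast cadherin, fell by 0.21 ± 0.09 (SE; adjusted p 0.0473) and 0.53 ± 0.11 (adjusted p 8.05e-06) per the authors' deposited tables. The 3′ UTRs of CDH11 and of ZEB2, which rose, both carry GTATCTA, as do those of ANKH, BMPR1A and SMAD5, which were not called with siRFX7. The part of this word in these results was not tested.

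SOX4, a progenitor factor of several lineages, was the gene of this list whose Nutlin-3a response differed. It rose by 0.38 ± 0.08 (SE; adjusted p 2.68e-05) in siControl and fell by 0.36 ± 0.08 (adjusted p 3.84e-05) in siRFX7 (authors' deposited tables), giving a difference of -0.74 ± 0.12 (adjusted p 1.95e-07). With siRFX7 the authors' deposited tables gave 0.07 ± 0.08 (SE; adjusted p 0.527) under DMSO and -0.67 ± 0.09 (adjusted p 4.74e-13) under Nutlin-3a. SOX4 carries GACGTA in its 3′ UTR, the word common among genes higher with siRFX7, and its part in the result was not tested.

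Markers of the neighbouring lineages moved as well, and their part in the results for the lineage genes was not tested. Of 8 cartilage markers 6 had a row in the authors' deposited siControl table, where 3 were called higher with Nutlin-3a and 1 lower. Over all genes there 18.3% were called higher and 19.6% lower. SOX6 rose by 0.88 ± 0.12 (SE), SOX5 by 0.52 ± 0.13 and SOX9 by 0.36 ± 0.06 in that authors' deposited table. ACAN, the only matrix gene of the list called, fell by 0.61 ± 0.10 (SE) in that authors' deposited table. In the authors' deposited siRFX7 table SOX6 (0.76 ± 0.13 SE) and SOX5 (0.59 ± 0.14) also rose, ACAN fell by 0.45 ± 0.10, and SOX9 stood at 0.01 ± 0.05. SOX9 differed, by -0.35 ± 0.08 (adjusted p 0.00163), and rose with siRFX7 under DMSO by 0.43 ± 0.06 (SE; adjusted p 5.70e-13) in the authors' deposited table. It was the 1 cartilage marker called there, and none was called with siRFX7 under Nutlin-3a. Over all genes 37.4% were called with siRFX7 under DMSO and 32.6% under Nutlin-3a.

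Of the fat cell markers, PPARG rose with Nutlin-3a by 0.20 ± 0.06 (SE) and 0.29 ± 0.07 and lipoprotein lipase (LPL) fell by 1.12 ± 0.22 and 1.21 ± 0.23, in siControl and siRFX7 per the authors' deposited tables. With siRFX7 LPL rose by 0.46 ± 0.18 (SE) under DMSO and PPARG by 0.21 ± 0.06 under Nutlin-3a per the authors' deposited tables. MYH3, an embryonic myosin, fell with Nutlin-3a in siRFX7 by 0.54 ± 0.18 (SE) and with siRFX7 under Nutlin-3a by 0.58 ± 0.17 in the authors' deposited tables, and no other muscle marker was called. OSCAR, an osteoclast receptor, rose with Nutlin-3a by 1.13 ± 0.09 (SE; adjusted p 2.86e-36) in siControl and 1.31 ± 0.10 (adjusted p 2.35e-35) in siRFX7 (from the authors' deposited tables), and no other osteoclast marker was called. For Nutlin-3a in siControl 4 of 7 fat, 3 of 7 muscle and 2 of 6 osteoclast markers had a row. DES, ACTA1 and CTSK had base means of only 9.92, 12.1 and 50.4 there, so their lack of calls says little. Over all genes 37.9% and 39.1% were called with Nutlin-3a in siControl and siRFX7. With siRFX7 37.4% were called under DMSO and 32.6% under Nutlin-3a.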

How the data were processed

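The data were 4 tables of the authors' own 2-group comparisons of 4 libraries against 4, with no column of a single library. Per the submitters' processing notes, tools included bcl2fastq 2.19.1.403, Trimmomatic 0.39, cutadapt 2.10, FastQC 0.11.9, SAMtools 1.10, Picard, featureCounts 1.6.5 and DESeq2 1.20.0, with build hg38. Aligner, annotation release and any shrinkage of fold changes are not given in the sources used here. The labels' protocols name a stranded poly(A) kit.

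The deposited base mean is a signal, the mean normalised read count that the authors computed per comparison. The deposited log2 fold changes and standard errors, the deposited Wald statistic (a score, used for checks only) and the deposited p-value and adjusted p-value were used unchanged. The tables list only genes with an adjusted p. Group levels were computed from base mean and fold change. Levels per kb used union exon lengths of GENCODE 29 on GRCh38. The difference of Nutlin-3a responses used the root of the summed squared standard errors, a two-sided normal p and Benjamini-Hochberg adjustment over 21339 genes. It was run on simulated data with normal errors of the deposited size, which does not test whether those errors hold. The other pair of tables gave the same differences with an SD of the gap of 0.00291 over 19344 genes. That pair holds the same contrast of the same libraries, so it checks the arithmetic only.

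Named were all members, per list and comparison the 3 highest and 3 lowest called fold changes, list genes with a differing response, and the 2 genes nearest to each member called in every table. Other genes named (SMAD1, SMAD4, SMAD5, SMAD9, ID1, ANKH, BMPR1A, and further values of genes named elsewhere) were chosen after their values were seen. The members and lists were chosen with earlier results of these data known. Alternatives changed the threshold, minimum size, base mean limit, centring, tables used and scale of the statistic. Python 3.11.15, pandas 2.3.3, numpy 2.4.6, scipy 1.17.1 and matplotlib 3.10.9 were used.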

Additional observations from a re-analysis of the deposited data

Results flagged for a closer look

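None of the 8 lineage genes stood out by a differing response, but 3 genes of the related lists did, each with a lower Nutlin-3a response in siRFX7 than in siControl by the test over all 21339 genes. SOX4, a progenitor factor, differed by -0.74 ± 0.12 on the log2 scale (adjusted p 1.95e-07). SOX9, the cartilage factor, differed by -0.35 ± 0.08 (adjusted p 0.00163). ID3, a BMP target, differed by -0.28 ± 0.07 (adjusted p 0.0106).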

How the results depend on the processing

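The 40 values of the 8 lineage genes (4 comparisons and the difference) were set against 207 alternatives. Of these, 181 kept direction and call, 22 lost the call, 4 gained it and none changed sign. Only centring and the use of the other pair of tables can alter a value, so under the rest no sign could change. A stricter threshold or a minimum size can only remove a call, so values not called stay the same there by construction. A size of at least 1 left 1 called gene of 4 for Nutlin-3a in siControl and 1 of 3 in siRFX7 (BMP4 in both), and 0 of 6 and 0 of 4 for siRFX7 under DMSO and Nutlin-3a. A size of at least 0.25 left 2 of 4 for siRFX7 under Nutlin-3a. RUNX2 gained its calls with siRFX7 when only genes whose base mean reached 100 were adjusted over and when fold changes were centred, as given above. An adjusted p under 0.01 removed SPARC for Nutlin-3a in siControl, MSX2 for siRFX7 under DMSO and BMP4 for siRFX7 under Nutlin-3a. In the BMP pathway list a size of at least 0.25 left 7 of 15 and 5 of 16 calls for Nutlin-3a in siControl and siRFX7, and 5 of 12 and 7 of 14 for siRFX7 under DMSO and Nutlin-3a, and an adjusted p under 0.01 left 10 of the 16. In the list of other lineage genes that size left 5 of 8 calls for Nutlin-3a in siControl and 3 of 6 for siRFX7 under DMSO, and an adjusted p under 0.01 left 3 of 6 and 3 of 5 for siRFX7 under DMSO and Nutlin-3a. A size of at least 1 left 0 calls in both lists in all 4 comparisons. No lineage gene had a differing response under any alternative run. No paired analysis was possible because the tables hold no values of single libraries, and for the same reason leaving out each library was not run. A base mean limit of 100 left SPP1 without a value for Nutlin-3a in siRFX7 (base mean 79.3). Depth limits SPP1 most, which had the lowest base mean and the largest standard error of the 8 genes in each of the 4 tables.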
